A study of Mus musculus with 3 samples.

Results

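The 8 genes described here encode the receptors through which blood vessels read vascular endothelial growth factors (VEGFs) and angiopoietins, together with the angiopoietin that endothelial cells make themselves: *Kdr*, *Flt1*, *Flt4*, *Nrp1*, *Nrp2*, *Tek*, *Tie1* and *Angpt2*. They were chosen by name, and all 8 were found among the 27,994 genes of the count table by matching its Ensembl identifiers to mouse symbols. Each gene was followed across the 7 cell clusters that the authors deposited, numbered from 0 to 6.

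The study asked what happens to adult endothelial cells when they are reaggregated with stroma of the embryonic aorta-gonad-mesonephros region, the site where blood stem cells first arise. Heart endothelium came from 12- to 16-week-old GFP+ mice, in which green fluorescent protein (GFP) marks the origin of a cell, not its type. It was sorted fresh (0 h) for GFP, CD31 and VE-Cad and against the blood markers CD41 and CD45 and the stromal markers PDGFRA and PDGFRB, or sorted as GFP+CD31+VE-Cad+PDGFRA- cells after 24, 48, 72 or 96 h as a co-aggregate with E11.5 *Mesp1*der PSCs, the PDGFRA+ stromal cells descended from *Mesp1*-expressing mesoderm, in medium holding interleukin-3, stem cell factor and Flt3 ligand. The second sort, unlike the first, did not leave out cells with CD41 or CD45. Tissue of several mice was pooled, and all times were pooled again within each of 3 sequenced pools, so a cell can be tied neither to a time nor to a mouse.

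The table held 9,562 cells from 3 libraries, named here libraries 1, 2 and 3 after the ending of each cell's barcode, with 3,507, 3,958 and 2,097 cells and median depths of 23,651, 13,440.5 and 38,312 unique molecular identifiers (UMIs, 1 for each captured RNA molecule). Clusters 0 to 6 held 728, 799, 5,396, 239, 518, 1,572 and 310 cells. Median depth ran from 7,875 UMIs in cluster 1 to 36,065.5 in cluster 5, and 13 barcodes occurred in more than 1 library. No label tied a library to a pool, so the table counts as 1 sample. The authors built the clusters from these same counts and ordered them from the highest *Cdh5* (VE-cadherin) to the highest *Runx1*. For both reasons the values below are descriptions without a test, and the range over the 3 libraries is the only spread given besides counting error.

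VEGF receptors are tyrosine kinases of the endothelial surface. *Kdr* (VEGFR2, also called Flk1) carries most of the growth and migration signal of VEGF-A. *Flt1* (VEGFR1) binds the same ligand tightly but signals weakly and so holds VEGF-A back. *Flt4* (VEGFR3) answers VEGF-C and VEGF-D and is best known from lymphatic vessels. The neuropilins *Nrp1* and *Nrp2* have no kinase and act as co-receptors for VEGFs and for class 3 semaphorins, with *Nrp1* typical of arteries and *Nrp2* of veins and lymphatics. *Tek* (Tie2) is the receptor of the angiopoietins, *Tie1* is its partner, and *Angpt2* (angiopoietin-2) is released by activated endothelium and loosens the quiet state that angiopoietin-1 keeps. *Kdr*, *Flt1*, *Tek* and *Tie1* are also found on early blood progenitors or some blood cells, *Flt1* on monocytes and macrophages among them.

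Promoters of *Kdr*, *Flt1* and *Tek* are shown because these genes were all high in clusters 0, 1 and 2, yet *Flt1* was highest in cluster 1 and *Tek* in cluster 0, and *Kdr* overlapped between all 3. Each run is the 250 bases before the RefSeq start in GRCm38.p6, 5′ to 3′ on the gene's own strand, with motif matches on either strand in capitals. *Kdr* is chr5:75978456-75978705 on the minus strand, *Flt1* is chr5:147726012-147726261 on the minus strand and *Tek* is chr4:94739039-94739288 on the plus strand.
Kdr: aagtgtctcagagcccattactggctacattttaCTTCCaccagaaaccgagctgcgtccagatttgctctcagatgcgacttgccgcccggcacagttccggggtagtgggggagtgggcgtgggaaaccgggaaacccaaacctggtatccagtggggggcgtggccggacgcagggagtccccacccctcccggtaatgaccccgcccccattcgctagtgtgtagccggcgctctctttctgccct
Flt1: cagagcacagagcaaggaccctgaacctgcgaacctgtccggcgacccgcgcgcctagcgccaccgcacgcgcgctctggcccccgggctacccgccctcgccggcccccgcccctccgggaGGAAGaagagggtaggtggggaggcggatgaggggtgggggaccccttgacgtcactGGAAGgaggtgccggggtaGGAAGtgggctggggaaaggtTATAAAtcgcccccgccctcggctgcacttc
Tek: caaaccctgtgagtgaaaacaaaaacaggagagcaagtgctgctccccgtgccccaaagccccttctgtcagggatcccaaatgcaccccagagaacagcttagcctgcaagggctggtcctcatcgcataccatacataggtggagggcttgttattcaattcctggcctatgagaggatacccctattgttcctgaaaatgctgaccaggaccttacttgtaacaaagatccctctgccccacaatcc

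The longer ETS site was searched as the letters CNGGAAGT, and the ETS core that lies inside it as the shorter run GGAAG. Sites of GATA factors were searched with the letters AGATAA and sites of SOX factors with the letters ACAATG. Sites of forkhead factors were searched as the run GTAAACA and the TATA box as the run TATAAA, all of them on both strands. RefSeq entries were matched for 7 members, all but *Angpt2*. The ETS core was found in 5 of these 7 promoters (*Tie1*, *Kdr*, *Flt1*, *Nrp1* and *Flt4*), against 64.1% of the 32,851 mouse promoters of the same length, so it does not set the members apart. *Kdr* held 1 ETS core, *Flt1* held 3 with a TATA box, and *Tek* held none of the 6 motifs. The longer ETS site was in *Tie1* only among the 7 and in 7.58% of all promoters, and the TATA box in *Flt1* only and in 12.4% of all. GATA, SOX and forkhead letters were in none of the 7, against 9.99%, 10.7% and 3.17% of all promoters. *Flt1* and *Kdr* were also richer in G and C (70.4% and 61.6%) than *Tek* (51.2%). These matches are letters in a window, not shown to be sites of binding.

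The labelled endothelium was checked against 7 endothelial markers (*Pecam1*, *Cdh5*, *Cldn5*, *Egfl7*, *Emcn*, *Esam* and *Ecscr*). Levels are UMIs of a gene per 10,000 UMIs of the cluster throughout, and the 7 markers summed to 54.3, 59.8 and 38.1 in clusters 0, 1 and 2 but only to between 4.36 and 6.50 in clusters 3 to 6. Cluster 0 also held 5 arterial markers at a summed 27.9, against 5.49 in cluster 1 and 3.14 in cluster 2. It led as well in 2 endocardial markers (*Npr3* and *Nfatc1*), at 2.85 against 0.353 and 0.397. The 3 venous markers (*Nr2f2*, *Ephb4* and *Ackr1*) summed to 1.04, 1.56 and 2.06 in clusters 0, 1 and 2. Cluster 3 led in germ and pluripotent markers (39.4 summed), cluster 4 in stromal markers (20.2), cluster 5 in macrophage (14.6) and granulocyte (15.6) markers, and cluster 6 in megakaryocyte markers (201). The label of endothelium is thus borne out by markers in clusters 0, 1 and 2 and not in the other clusters. The 8 members summed to 28.0, 22.8 and 15.3 in clusters 0, 1 and 2 and to between 2.36 and 3.49 in clusters 3 to 6. Library 2 had the highest member sum in every cluster, for example 3.84 in cluster 3 against 1.65 in library 1 and 1.38 in library 3.

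**Figure D1:**
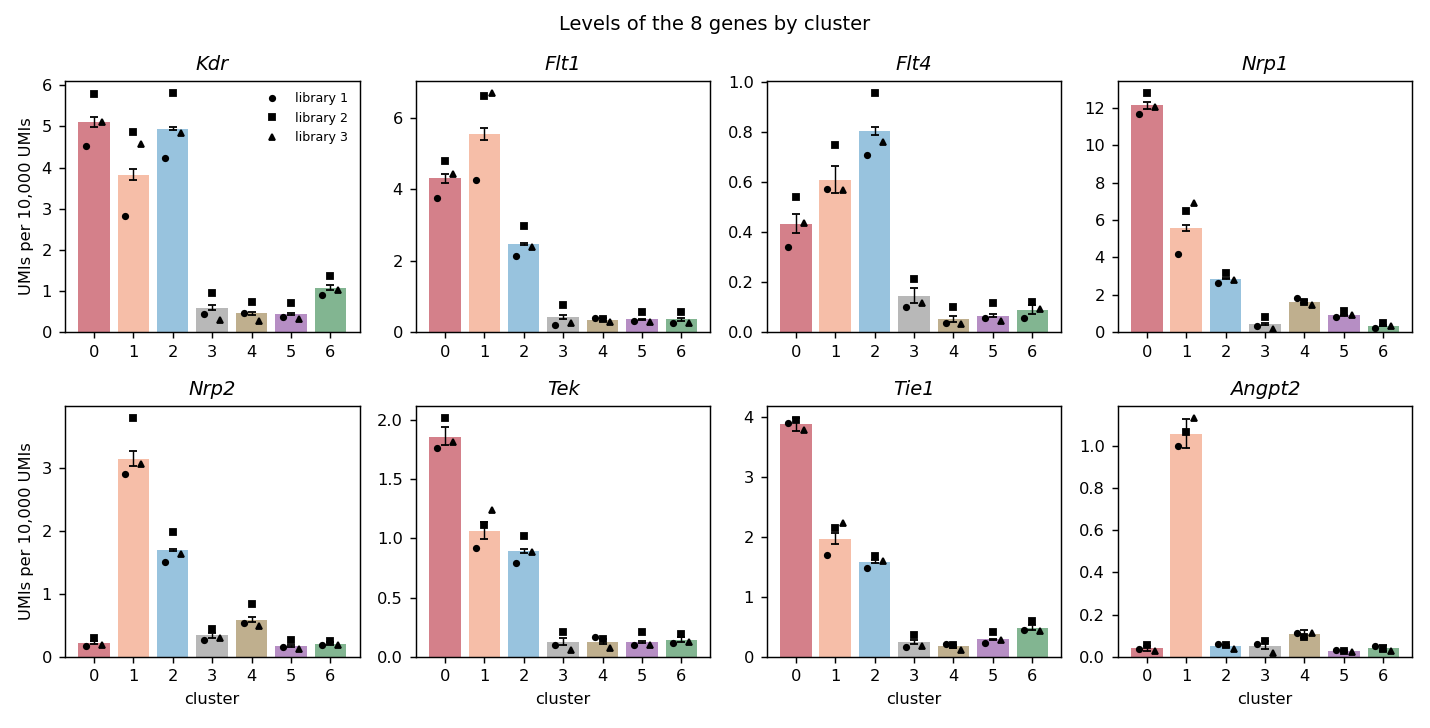
Level of each of the 8 genes (UMIs per 10,000 UMIs of the cluster) in clusters 0 to 6, each panel with an axis of its own from 0. Bars are the level over the whole cluster with its exact 95% Poisson interval, and points are the 3 libraries. The levels in clusters 0, 1 and 2 stand above those in clusters 3 to 6 for most of the genes, with *Nrp2* in cluster 0 and *Angpt2* outside cluster 1 as the exceptions.

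*Kdr* (chr5:75932827-75978458, minus strand, GRCm38) was near 5 in clusters 0 and 2, somewhat lower in cluster 1 and low elsewhere, with 1 exception. In libraries 1, 2 and 3 it was 4.53, 5.79 and 5.11 in cluster 0, 4.24, 5.81 and 4.84 in cluster 2 and 2.82, 4.85 and 4.58 in cluster 1. These 3 clusters overlap, and their neighbours in the order do not differ beyond the spread over libraries. Cluster 6 followed with 0.908, 1.35 and 1.02, apart from cluster 1 above it. Clusters 3, 4 and 5 were at 0.591, 0.460 and 0.438 and overlapped each other in the same way. Library 2 raised clusters 3 and 5 most, to 0.958 and 0.710, and the range of cluster 6 was above that of cluster 5 yet overlapped that of cluster 3.

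Counted per cell, *Kdr* was again high in clusters 0, 1 and 2 and intermediate in cluster 6. With every cell thinned to 5,000 UMIs, *Kdr* was detected in 85.7%, 64.6% and 88.0% of cells in clusters 0, 1 and 2 and in 25.1%, 14.5%, 20.0% and 44.0% in clusters 3 to 6. Thinning left out 90 shallower cells, 6, 54, 19, 0, 6, 4 and 1 of them from clusters 0 to 6. At full depth, counting cells above 0.5 UMIs per 10,000, the shares were 95.9%, 72.6%, 98.0%, 36.8%, 22.6%, 26.3% and 66.8%. The thinned share of cluster 6 (95% exact binomial interval 38.4–49.7%, counting error only, as for every interval here) stood above those of clusters 3, 4 and 5 at equal depth. Cluster 3 is led by germ and pluripotent genes. There *Flt1* was found in 61.7% of cells with *Kdr* and in 12.3% of the others. The same shares were 37.8% and 7.08% in cluster 4, 43.9% and 12.2% in cluster 5 and 30.9% and 10.98% in cluster 6. *Kdr* was thus not spread evenly over cells in any of clusters 3 to 6. The part of free RNA in the shares of clusters 3 to 6 was not tested.

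*Flt1* (chr5:147561604-147726011, minus strand), the VEGF-A trap, was highest in cluster 1 and not in cluster 0. Its level in libraries 1, 2 and 3 was 4.26, 6.59 and 6.69 in cluster 1, 3.75, 4.78 and 4.44 in cluster 0 and 2.13, 2.97 and 2.37 in cluster 2. Clusters 1 and 0 overlap, because library 1 was low in cluster 1, whereas cluster 2 lay below both. Clusters 3 to 6 were at 0.418, 0.350, 0.359 and 0.356, and did not differ beyond the spread over libraries in this level. At 5,000 UMIs per cell *Flt1* was detected in 81.3%, 75.8% and 67.7% of cells of clusters 0, 1 and 2. In clusters 3 to 6 it was detected in 24.7% (19.4–30.7%), 11.52% (8.89–14.6%), 18.6% and 19.7%, so at equal depth clusters 3 and 4 were apart beyond counting error over the pooled cells. By level, cluster 3 was above cluster 4 in library 2 only (0.766 against 0.361). It was below cluster 4 in library 1 (0.207 against 0.408) and in library 3 (0.245 against 0.280). Counts cannot tell the full receptor from the soluble form of *Flt1*, which is spliced from the same gene.

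*Flt4* (chr11:49609263-49652739, plus strand), the VEGF-C receptor, was the only member that was highest in cluster 2. It was 0.707, 0.954 and 0.759 in libraries 1, 2 and 3 of cluster 2, 0.570, 0.749 and 0.567 in cluster 1 and 0.340, 0.538 and 0.436 in cluster 0. Clusters 2 and 1 overlap and cluster 0 lay below cluster 1. Of these 3 clusters, cluster 0 was thus lowest for *Flt4*, whereas *Tek* and *Tie1* were highest there. It was at most 0.144 in clusters 3 to 6 and was detected in 20.9%, 24.4% and 33.1% of the thinned cells of clusters 0, 1 and 2. Lymphatic markers (*Prox1*, *Lyve1*, *Pdpn*, *Reln* and *Ccl21a*) summed to no more than 0.566 in any cluster.

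*Nrp1* (chr8:128358604-128503363, plus strand) was highest in cluster 0, apart from every other cluster. Its level in libraries 1, 2 and 3 was 11.7, 12.8 and 12.1 in cluster 0, 4.18, 6.50 and 6.93 in cluster 1 and 2.63, 3.16 and 2.79 in cluster 2. None of these ranges overlap. *Nrp1* was detected in 97.2% of the thinned cells of cluster 0 (95.8–98.3%), in 75.03% of cluster 1 and in 69.6% of cluster 2. Its order did not end with the endothelial clusters: clusters 4 and 5 still held 1.63 and 0.914, with detection in 43.2% and 33.8% of cells, and their ranges (1.47–1.81 and 0.791–1.12) were apart. Clusters 3 and 6 were lowest at 0.447 and 0.338, with detection in 28.5% and 16.2%.

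*Nrp2* (chr1:62703285-62818695, plus strand) was arranged the other way. It was 2.90, 3.80 and 3.06 in libraries 1, 2 and 3 of cluster 1 and 1.51, 1.98 and 1.63 in cluster 2, but 0.176, 0.305 and 0.195 in cluster 0. Cluster 0 therefore lay with the non-endothelial clusters, below cluster 4 (0.590) and not apart from clusters 3, 5 and 6 (0.339, 0.170 and 0.206). *Nrp2* was detected in 5.96% of the thinned cells of cluster 0, against 67.8% in cluster 1, 51.2% in cluster 2 and between 10.2% and 19.9% in clusters 3 to 6. The gene overlaps *Gm29083* on the other strand.

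In cells rather than sums, the neuropilins split cluster 0 from the other endothelial clusters. *Nrp1* without *Nrp2* was found in 91.4% of the cells of cluster 0 and both were found in 5.82%. In cluster 1 both were found in 52.2% of cells, *Nrp1* alone in 22.8% and *Nrp2* alone in 15.6%. Cluster 2 had 34.2%, 35.4% and 17.02% in the same order. The ratio of *Nrp1* to *Nrp2* UMIs was 54.8 in cluster 0, with 41.9 to 66.4 over the libraries, and 1.76 and 1.68 in clusters 1 and 2.

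*Tek* (chr4:94739289-94874976, plus strand) and *Tie1* (chr4:118471191-118490061, minus strand), the receptor pair of the angiopoietins, were arranged alike. *Tek* was 1.77, 2.02 and 1.82 in libraries 1, 2 and 3 of cluster 0, 0.917, 1.11 and 1.24 in cluster 1 and 0.793, 1.02 and 0.882 in cluster 2. *Tie1* was 3.90, 3.95 and 3.78 in cluster 0, 1.70, 2.14 and 2.24 in cluster 1 and 1.49, 1.68 and 1.60 in cluster 2. Both were apart from the rest in cluster 0, and clusters 1 and 2 overlapped for *Tek* but were just apart for *Tie1*. Both receptors were detected together in 48.3%, 27.7% and 20.98% of the thinned cells of clusters 0, 1 and 2. The product of their separate shares was 47.8%, 23.2% and 20.2%.

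Outside these clusters the pair differed in cluster 6. *Tek* lay between 0.125 and 0.143 in clusters 3 to 6 with all neighbours overlapping. *Tie1* was 0.240, 0.176 and 0.289 in clusters 3, 4 and 5 and 0.487 in cluster 6 (0.448, 0.594 and 0.426 in libraries 1, 2 and 3), above and apart from the 0.225, 0.414 and 0.280 of cluster 5. *Tie1* was detected in 26.9% of the thinned cells of cluster 6 and in 16.7%, 6.84% and 15.4% of clusters 3, 4 and 5. The ratio of *Tie1* to *Tek* UMIs was 3.41 in cluster 6 (3.09 to 3.88 over libraries) and between 1.38 and 2.32 in the other clusters, although library 3 of cluster 3 reached 3.4.

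*Angpt2* (chr8:18690263-18741562, minus strand), the only ligand among the 8, was found in cluster 1. It was 0.999, 1.07 and 1.13 in libraries 1, 2 and 3 of cluster 1, and no other cluster exceeded 0.108. Cluster 4 came next (0.113, 0.0929 and 0.113 in the 3 libraries), apart from cluster 1 above it and from cluster 3 (0.0533) below it. Clusters 3, 2, 6, 0 and 5 followed at 0.0533, 0.0520, 0.0399, 0.0397 and 0.0272, and no neighbours among these were apart. At 5,000 UMIs per cell *Angpt2* was detected in 27.7% of cluster 1 (24.5–31.01%) and in 1.66% and 2.75% of clusters 0 and 2, although cluster 1 was the shallowest. *Angpt2* overlaps *Mcph1* on the other strand, and *Mcph1* was lowest in cluster 1 (0.0939).

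Over the 8 members and 48 neighbouring pairs in these orders, 20 pairs were apart and 28 overlapped. Of these 28, 13 kept the same order within each of the 3 libraries, among them *Kdr* and *Flt4* in cluster 2 over cluster 1, *Flt1* in cluster 1 over cluster 0 and *Tek* in cluster 1 over cluster 2. Cluster 0 was highest for 4 members (*Kdr*, *Nrp1*, *Tek* and *Tie1*), cluster 1 for 3 (*Flt1*, *Nrp2* and *Angpt2*) and cluster 2 for 1 (*Flt4*).

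The endothelial clusters were then compared with clusters 5 and 6, which hold the higher *Runx1*. A gene was called where its level differed at least 2-fold over the whole clusters and lay in the same direction in each of the 3 libraries, and it entered only where the mean of both group levels reached 0.1. Clusters 0, 1 and 2 together were called higher than clusters 5 and 6 together for 7 of the 7 members that entered, and lower for none. Among all 8,250 genes that entered, 14.2% were called higher and 8.29% lower. The clusters were ordered by *Cdh5* and *Runx1* in the first place, so a high share among endothelial genes is built into the comparison and the count of 7 is a description only. *Flt4* entered only through the clusters where it is high. *Kdr* was 4.89 against 0.535 (9.15-fold), *Flt4* 0.763 against 0.0689 (11.1-fold) and *Nrp2* 1.66 against 0.175 (9.48-fold). These levels are sums of UMIs, to which cluster 2, with the most cells, adds most. The difference in *Nrp2* did not hold for cluster 0 alone. Its 0.222 there overlapped the 0.170 of cluster 5 and the 0.206 of cluster 6 over the libraries. *Flt1* was 7.75-fold, *Tek* 7.67-fold and *Tie1* 5.61-fold higher. *Nrp1* had the smallest difference, 3.71 against 0.827 (4.49-fold). With cells thinned to 5,000 UMIs all 7 differences kept their direction, at 4.52-fold for *Nrp1* to 7.07-fold for *Flt4*. *Angpt2* was under the level filter. The members' median log2 ratio was 2.95 against 0.04 for all genes. A list of 10 other endothelial receptors was called higher for 10 of 10, with a median log2 ratio of 2.75. These were *Eng*, *Acvrl1*, *Tgfbr2*, *S1pr1*, *Aplnr*, *Calcrl*, *Ramp2*, *Notch1*, *Robo4* and *Plvap*, of which *Robo4* entered only through the endothelial side. The difference is thus not particular to the members.

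Cluster 0 was called higher than cluster 2 for 3 of 7 members and lower for 1, where 7.67% and 2.40% of 8,238 genes were called higher and lower. *Nrp1* was higher by 2.15, 2.02 and 2.12 on the log2 scale in libraries 1, 2 and 3 (4.27-fold over the cluster). *Tie1* was higher by 1.39, 1.23 and 1.24 (2.44-fold) and *Tek* by 1.15, 0.99 and 1.04 (2.08-fold, just past the threshold). *Nrp2* was lower, with log2 ratios of -3.10, -2.70 and -3.07 (7.67-fold). The members that passed were thus a neuropilin in each direction and the Tie receptors, and the VEGF receptor kinases did not pass. *Flt1* had a log2 ratio of 0.80, *Flt4* one of -0.89 and *Kdr* one of 0.05. Of the 10 other endothelial receptors, cluster 0 was called higher for 4 (*Acvrl1*, *Calcrl*, *Ramp2* and *Notch1*) and lower for 1 (*Aplnr*).

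Cluster 1 was called higher than cluster 2 for 2 of 8 members and lower for none, where 18.0% and 9.68% of 8,577 genes were called, so the count is near the background. *Angpt2* was higher by 4.02, 4.196 and 4.93 on the log2 scale in the 3 libraries (20.3-fold). *Flt1* was higher by 0.999, 1.15 and 1.498 (2.24-fold), and without library 3 its log2 ratio was 0.99, under the threshold. *Nrp1* had a log2 ratio of 0.97, short of the threshold, but one of 1.19 and a call without library 1. *Nrp2* was at 0.89, and *Tek*, *Tie1*, *Kdr* and *Flt4* lay between -0.40 and 0.31. *Angpt2* entered only through cluster 1, where it is high, so its call was bound to follow. Cluster 1 also held macrophage markers at a summed 4.06 (1.29 to 5.43 over libraries) and stromal markers at 2.67, and their part in its values was not tested.

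Cluster 6 was called higher than cluster 5 for 1 of 6 members and lower for 1, where 7.77% and 7.98% of 7,823 genes were called. *Kdr* was higher by 1.27, 0.93 and 1.64 on the log2 scale in libraries 1, 2 and 3 (2.47-fold). Endothelial markers were 6.50 against 5.20 summed, but did not all go the same way. *Esam* differed most (1.23 against 0.387), *Cdh5* (0.503 against 0.585) and *Ecscr* (0.428 against 0.458) were lower in cluster 6, and the others were higher. The part of these markers was not tested. *Nrp1* was lower, with log2 ratios of -1.96, -1.16 and -1.41 (2.70-fold). *Tie1* was 1.69-fold higher and short of the threshold, and *Flt1*, *Nrp2* and *Tek* lay between -0.01 and 0.28.

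**Figure D2:**
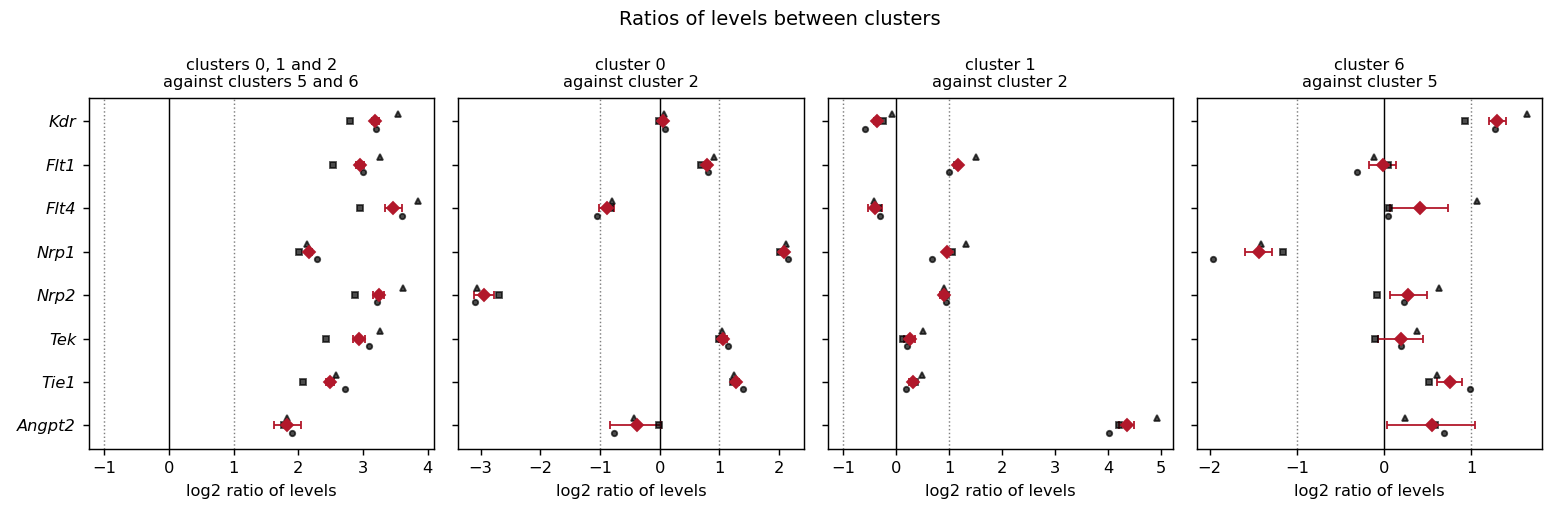
Log2 ratio of the level of each gene in 4 comparisons of clusters; black points are the 3 libraries, diamonds the ratio over the whole clusters with its 95% counting interval, and dotted lines mark a 2-fold difference. *Nrp1* and *Nrp2* lie on opposite sides in cluster 0 against cluster 2, *Angpt2* reaches 4.35 in cluster 1 against cluster 2, and *Kdr* and *Nrp1* lie on opposite sides in cluster 6 against cluster 5.

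The composition of the members' RNA differed between clusters too. *Kdr* made up 32.3% of the members' summed UMIs in cluster 2, and 25.1%, 13.1%, 18.4% and 39.5% in clusters 3 to 6. Over the libraries, cluster 6 ranged from 37.3% to 41.0%, above the 31.3–33.0% of cluster 2. *Nrp1* made up 43.4% and 18.6% in clusters 0 and 2. Its share was near that of cluster 0 in clusters 4 (46.7%, 39.5–51.6% over libraries) and 5 (38.3%, 32.9–43.7%), but only 12.3% (9.16–13.9%) for cluster 6. *Tie1* made up 17.8% in cluster 6 (16.4–20.2%) and between 5.03% and 13.9% elsewhere.

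Of clusters 3 to 6, the makeup of cluster 3 was nearest to that of cluster 2, the cluster with the most cells. There *Nrp1* made up 18.9% (12.4–20.8% over libraries), *Flt1* 17.7%, *Tie1* 10.2% and *Tek* 5.40%, against 18.6%, 16.2%, 10.4% and 5.84% in cluster 2. *Kdr* was lower, 25.1% (21.7–27.2%) against 32.3%. *Nrp2* (14.4% against 11.1%), *Flt4* (6.12% against 5.24%) and *Angpt2* (2.26% against 0.340%) took larger shares. What these proportions owe to free RNA was not tested. The ratio of *Flt1* to *Kdr* UMIs was 0.840, 1.45 and 0.501 in clusters 0, 1 and 2, and lowest, at 0.329, in cluster 6.

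**Figure D3:**
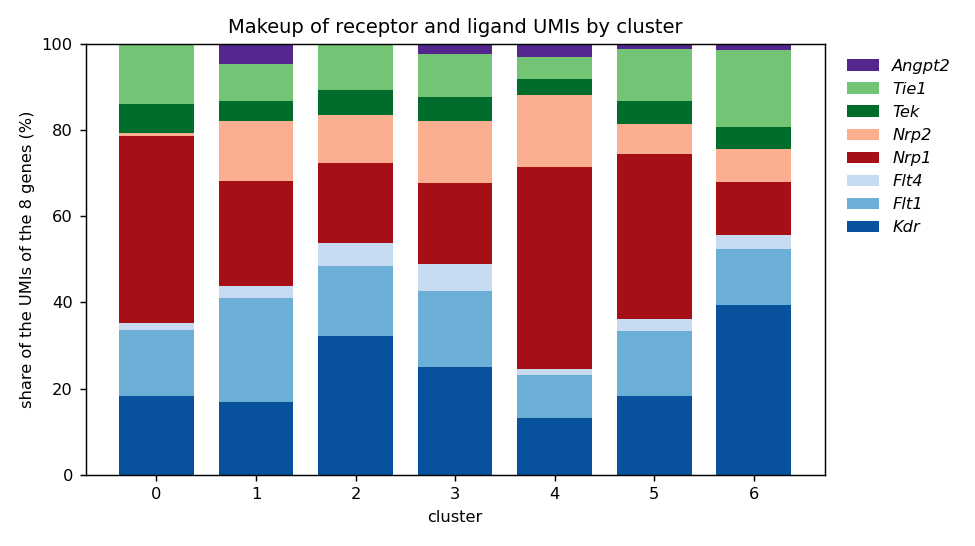
Share of each gene (%) in the summed UMIs of the 8 genes, by cluster, as stacked bars that each reach 100%. *Nrp1* takes 43.4% in cluster 0 and 46.7% in cluster 4, and *Kdr* takes 32.3% in cluster 2, 25.1% in cluster 3 and 39.5% in cluster 6.

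Low levels in clusters 3 to 6 were also examined in cells that held no UMI of *Cdh5* or *Pecam1* at 5,000 UMIs per cell, a choice made after the levels had been seen. This selection lowers endothelial RNA but does not remove it: in cluster 2 it left 209 cells, of which 69.9% still held *Kdr* and 56.0% *Nrp1*. In cluster 6 it left 181 cells, 58.6% of the cluster, and 126 of them held a UMI of either gene at full depth. *Kdr* was detected in 34.3% of them (27.4–41.7%), with 34.2%, 33.3% and 36.4% in libraries 1, 2 and 3. *Tie1* was detected in 20.4% (14.8–27.1%), with 21.1%, 20.8% and 18.2%. *Flt1* was at 9.39%, *Nrp2* at 6.63%, *Nrp1* at 6.08%, *Tek* at 3.31% and *Flt4* at 1.10%. *Angpt2* was found in 0 of 181 cells. That allows a share of cells with a UMI of up to 1.66% by a floor of 3 counts, or up to 2.02% by the exact interval. *Kdr* and *Tie1* thus had the highest shares of the 8 in these cells, in each of the 3 libraries.

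In cluster 5 the same selection left 920 cells, and there *Nrp1* led, with 27.6% (24.7–30.6%) and 26.3%, 29.1% and 28.0% in the 3 libraries. *Kdr* was at 6.20% (4.73–7.95%), below cluster 6, and *Flt1* was at 9.02%. In cluster 4, with 386 cells, *Nrp1* was at 38.1% (33.2–43.1%) and *Nrp2* at 16.8% (13.2–20.95%), against 8.03% for *Kdr* and 2.59% for *Tie1*. In cluster 3, with 97 cells, no member exceeded 9.28%, the value of both neuropilins. At full depth 563 of the 920 cells, 92 of the 386 and 78 of the 97 held a UMI of *Cdh5* or *Pecam1*. The part of endothelial RNA in these shares was not tested.

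**Figure D4:**
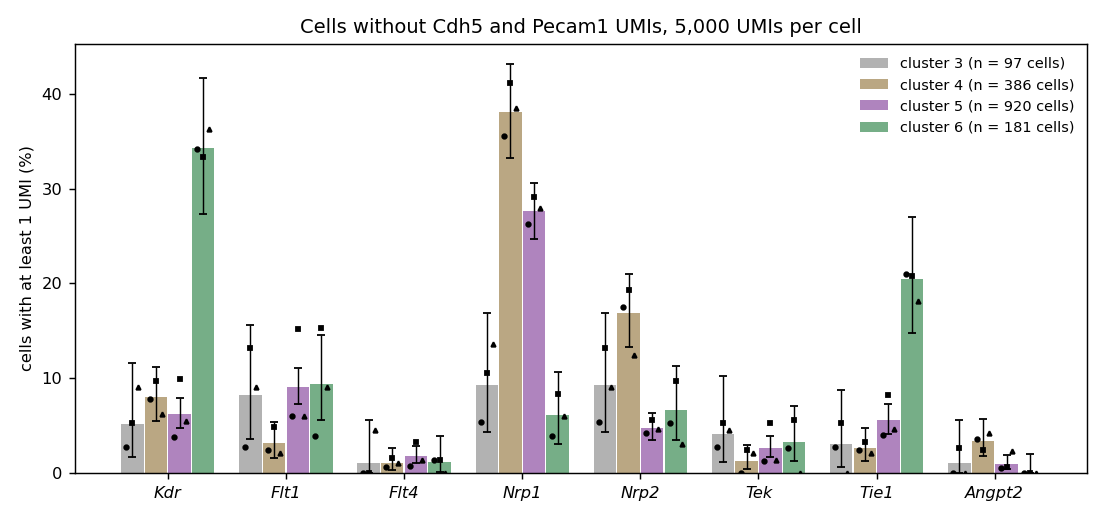
Share of cells (%) with each gene at 5,000 UMIs per cell in clusters 3 to 6, among cells without a UMI of *Cdh5* or *Pecam1*; bars carry exact 95% binomial intervals and points are the 3 libraries. *Nrp1* stands highest in clusters 4 and 5 (38.1% and 27.6%) and *Kdr* and *Tie1* in cluster 6 (34.3% and 20.4%).

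Most endothelial cells held several members at once. At 5,000 UMIs per cell, the mean number detected was 4.34, 4.33 and 4.04 in clusters 0, 1 and 2 and between 1.08 and 1.35 in clusters 3 to 6. Cells with none of the 8 made up 0.139%, 2.42% and 0.855% of clusters 0, 1 and 2, and 49.8%, 39.6%, 44.1% and 35.0% of clusters 3 to 6. *Kdr* and *Flt1* were found together in 71.9%, 54.8% and 61.4% of cells of clusters 0, 1 and 2. Detection of each gene independently of the other would give 69.7%, 49.0% and 59.6%, so most of this follows from the separate shares. Cluster 1 had the fewest cells with both receptors among these 3 clusters. *Kdr* was detected in 64.6% of its cells, against 85.7% and 88.0% in clusters 0 and 2. *Flt1* was detected in 75.8% of its cells, below the 81.3% of cluster 0 and above the 67.7% of cluster 2.

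Cells within a cluster were next divided by 1 gene, at 5,000 UMIs per cell, and the members compared between the sides by the log2 ratio of their summed UMIs. In cluster 0, 49 cells with *Runx1*, the transcription factor that starts the blood programme, were set against 673 without. *Kdr* was 2.24 against 5.79, *Flt1* 2.29 against 4.75 and *Nrp1* 7.43 against 13.7, with log2 ratios of -1.37, -1.05 and -0.89. *Tek* (-0.86) and *Tie1* (-0.79) were lower as well, and all 5 were lower in each of the 3 libraries. The 7 endothelial markers were lower together, 35.8 against 58.9 summed, as were arterial (15.3 against 30.5) and endocardial markers (1.43 against 3.27), while the haematopoietic markers other than *Runx1* were 0.816 against 0.146. The part of these markers in the members' difference was not tested. In cluster 2, 69 cells with *Runx1* did not differ from 5,308 without beyond counting error for any receptor, with *Kdr* at a log2 ratio of -0.04 and endothelial markers at 38.4 against 39.6. No receptor kept its direction over the 3 libraries, with *Flt1* at 0.92, -0.09 and -1.29. This split rests mostly on single UMIs: 0.0744% of the thinned cells of cluster 2 held 2 or more of *Runx1*, against 3.32% in cluster 0. The 69 cells were shallower before thinning (median 10,389 against 22,650.5 UMIs). Over the libraries pooled they held more stromal (1.39 against 0.214 summed), mural (0.667 against 0.130), megakaryocyte (1.91 against 0.340) and granulocyte markers (0.870 against 0.151). Arterial markers were 2.43 against 3.53, and the part of these markers was not tested. *Angpt2*, at a log2 ratio of 1.56 from few UMIs, was not higher in every library. Whether the difference in cluster 0 exceeds that in cluster 2 was not tested.

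Cluster 5 holds cells with macrophage and with granulocyte genes, and of the members *Nrp1* differed in opposite directions between them. Cells with *C1qb* (a complement gene of macrophages) but not *Mpo* (myeloperoxidase of granulocyte precursors), 682 in number, held *Nrp1* at 1.62 against 0.770 in the 514 cells with neither. *Nrp1* was higher by 1.51, 0.94 and 0.96 on the log2 scale in the 3 libraries, and *Nrp2* was 0.334 against 0.206. *Kdr*, *Flt1* and *Tie1* were lower in the same cells, with log2 ratios of -0.33, -0.41 and -0.998, while *Flt4* (-0.19) and *Tek* (-0.53) did not differ beyond counting error. Endothelial markers were 6 against 9.19 summed. In the 326 cells with *Mpo* but not *C1qb*, *Kdr*, *Flt1*, *Nrp1*, *Tek* and *Tie1* were all lower than in cells with neither (log2 ratios from -0.54 to -1.16), and endothelial markers were 5.65 against 9.19. *Nrp1* was thus higher on the *C1qb* side and lower on the *Mpo* side, where the endothelial markers were lower on both. The cells with neither gene also held erythroid markers at 7.45 summed, against 0.308 with *C1qb* and 0.436 with *Mpo*, and the part of these markers was not tested.

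In cluster 6, 136 cells with *Kdr* were set against 173 without. *Flt1* (log2 ratio 1.93), *Flt4* (1.35) and *Nrp2* (1.98) were higher in cells with *Kdr*, whereas *Tie1*, at 0.50, did not differ beyond counting error. *Nrp1* (1.62) and *Tek* (1.57) were higher in only 2 of the 3 libraries. The endothelial markers were 13.3 against 5.69 summed, higher for 7 of 7, and megakaryocyte markers were 188 and 183. Erythroid markers were 13.4 against 4, macrophage markers 0.103 against 0.358 and granulocyte markers 0.221 against 0.821. Their part in the members' difference was not tested.

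In cluster 1, 206 cells with *Angpt2* were set against 539 without. *Pgf*, a VEGF family ligand that binds *Flt1*, was 6.89 against 2.56, higher by 1.44, 1.47 and 1.37 on the log2 scale in the 3 libraries. *Kdr* differed little at this depth (log2 ratio -0.02), and *Tek* (-0.46) and *Tie1* (-0.44) were lower in cells with *Angpt2* in each library. *Nrp2* was higher in these cells, with a log2 ratio of 0.19 (0.012 to 0.37) and 0.23, 0.07 and 0.23 in the 3 libraries. *Nrp1* (-0.36) was not lower in every library. At 10,000 UMIs per cell, with 106 and 162 cells left, the ratio for *Tek* turned to 0.03 and that for *Kdr* to 0.45, and the cause was not tested. Cells with *Angpt2* held more of the endothelial markers (68.2 against 60.4 summed) and less of the macrophage (0.981 against 3.27), stromal (0.408 against 3.37) and erythroid markers (0.194 against 4.43), and their part was not tested.

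In cluster 2, 4,031 cells with *Mki67* or *Top2a*, genes of dividing cells, held less of several members than 1,346 without. *Angpt2* had the largest difference, a log2 ratio of -0.61 from 108 and 55 UMIs (-1.17, -0.14 and -0.60 in libraries 1, 2 and 3). *Tie1* had a log2 ratio of -0.41, *Nrp1* of -0.30, *Kdr* of -0.16, *Flt1* of -0.17 and *Nrp2* of -0.14. *Flt4* and *Tek* did not differ beyond counting error. Endothelial markers were 38.4 against 43.1 summed, arterial markers 2.99 against 5.08 (0 of 5 higher) and lymphatic markers 0.400 against 0.664. The part of these markers was not tested.

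**Figure D5:**
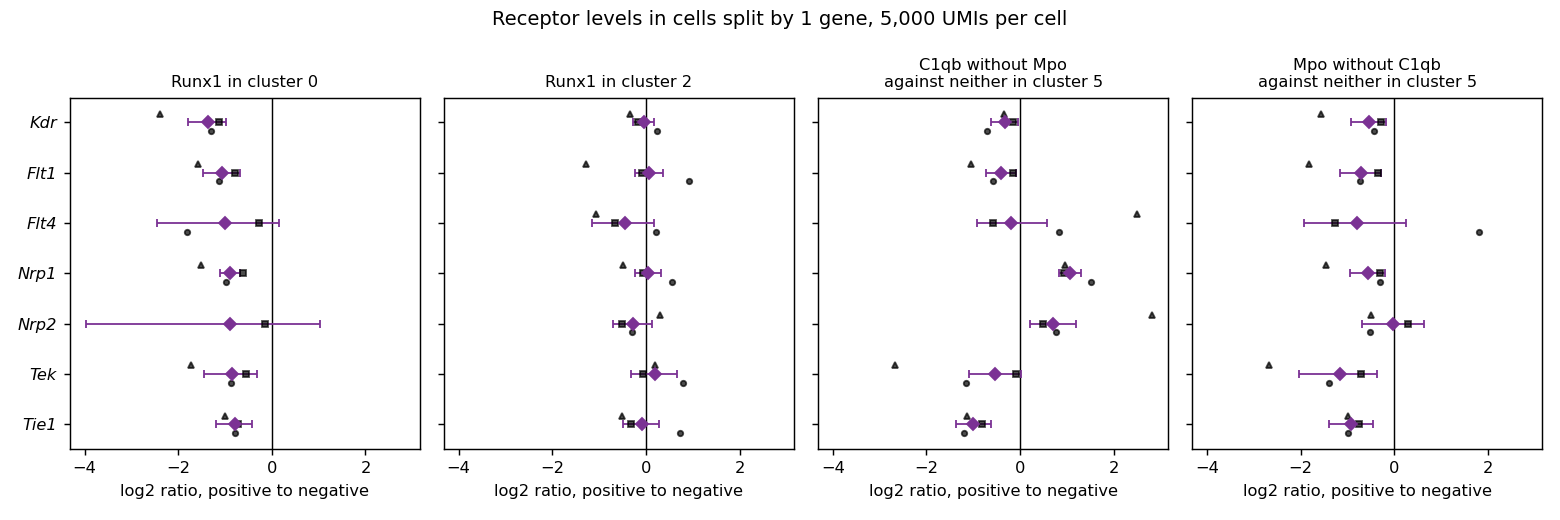
Log2 ratio of each gene's summed UMIs at 5,000 UMIs per cell between the sides of 4 splits inside clusters; diamonds carry exact 95% intervals for counting error and black points are the 3 libraries, where a library had UMIs on both sides. *Angpt2* is not drawn. In cluster 0, *Kdr*, *Flt1*, *Nrp1*, *Tek* and *Tie1* lie below 0 in cells with *Runx1*, and in cluster 5 *Nrp1* and *Nrp2* lie above 0 in cells with *C1qb*.

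Ligands and partners of the receptors differed between the endothelial clusters. *Vegfc*, the ligand of *Flt4*, was 2.45 in cluster 0 and 0.211 in cluster 2 (11.6-fold), so ligand and receptor were highest in different clusters. *Vegfa* was 0.319 against 0.0460 in the same comparison, where both were called. *Pgf* was 3.33 in cluster 1 (3.03, 3.13 and 3.91 in the libraries) and 0.0287 in cluster 2, and in that comparison *Vegfa*, *Vegfc* and *Pgf*, 3 of the 4 ligands that entered, were called higher, against 18.0% of all genes. *Pgf* and *Vegfa* entered only through the cluster where they are high. *Ptprb*, the phosphatase that quiets *Tek*, was higher than in cluster 2 both in cluster 0 (4.00-fold) and in cluster 1 (3.61-fold). *Angpt1*, the activating ligand of *Tek*, was 2.12-fold higher in cluster 6 than in cluster 5 (0.507 against 0.239) and was called lower in the endothelial clusters than in clusters 5 and 6, a comparison it entered only through the latter.

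Of the 7 class 3 semaphorins, the other ligands of the neuropilins, 2 entered the comparisons with cluster 2, *Sema3f* and *Sema3g*, and both were called higher in cluster 0 and in cluster 1, where 7.67% and 18.0% of all genes were called higher. *Sema3f*, *Plxna4* and *Plxna1* were under 0.1 in cluster 2 and so entered only through the clusters where they are high. *Sema3g* was 1.21 in cluster 0 against 0.138 in cluster 2 (8.81-fold), and *Sema3f* was 0.900 in cluster 1 against 0.0423 in cluster 2 (21.3-fold). *Plxna2* and *Plxna4* were called higher than in cluster 2 in both clusters, and *Plxna1* was called in cluster 1. *Plxnd1*, the plexin with the highest level, was called in neither, at 3.66, 2.96 and 3.49 in clusters 0, 1 and 2. Of the 13 adaptors and effectors that entered, cluster 1 was called higher than cluster 2 for 2, *Shb* and *Nos3*, a share near the 18.0% of all genes called higher, and *Shb* entered only through cluster 1. Cluster 0 was called higher than cluster 2 for 2 of 12, against 7.67% of all genes, *Nos3*, the endothelial nitric oxide synthase, and the kinase *Mapk3* (2.30 against 1.08).

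Endothelial genes known to answer VEGF were called higher in cluster 1 than in cluster 2 for 10 of 13, against 18.0% of all genes, among them the Notch ligand *Dll4* (5.997-fold), *Igfbp3* (5.25-fold) and *Cxcr4* (20.3-fold). Of these 10, *Cxcr4* and *Nr4a1* entered only through cluster 1. In cluster 0 against cluster 2 the list divided, with 4 of 11 higher (*Dll4*, *Cxcr4*, *Unc5b* and *Igfbp3*) and 2 lower (*Apln*, 11.9-fold, and *Kcne3*, 22.6-fold), where 7.67% and 2.40% of all genes were called. *Cxcr4* and both lower genes entered only through the cluster where they are high, so those calls were bound to follow. Of 18 transcription factors of endothelial receptor genes, cluster 0 was called higher than cluster 2 for 4 (*Gata2*, *Foxc2*, *Sox7* and *Sox17*), against 7.67% of all genes. It was called lower for 1 (*Prox1*, which entered only through cluster 2), against 2.40%. Cluster 1 was called higher than cluster 2 for none and lower for 1 (*Lmo2*), where 18.0% and 9.68% of all genes were called. Against clusters 5 and 6, the endothelial clusters were called higher for 10 of 10 of the VEGF-answering genes and 10 of 17 of the factors, where 14.2% of all genes were called higher and the clusters' order already favours endothelial genes. Of these calls, 6 of the 10 VEGF-answering genes and 3 of the 10 factors were under 0.1 in clusters 5 and 6 and entered only through the endothelial side.

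The genes most like each member over the 21 profiles of 7 clusters in 3 libraries were found by Pearson's r on log2 levels among 5,500 genes, as a description, since the profiles share libraries and depth. The closest genes depend on the measure: by Spearman's rho, fewer than 2 of the 3 genes stayed among the 3 closest for 6 of the 8 members, and with a pseudocount of 0.01 for 2. *Kdr* was closest to *Plxnd1* (r = 0.979), a semaphorin receptor, then to *Exoc3l* and *Arhgef15*. *Flt1* was closest to *Eng* (0.994), *Cdh5* (0.993) and *Adgrf5* (0.992). *Flt4* was closest to *Arhgef15* (0.963), *Col15a1* and *Pcdh17*. *Cdh5*, so close to *Flt1*, is the gene by which the clusters were ordered.

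*Nrp1* was closest to *Rgs3*, *Nhsl2* (0.971) and *Pam* (0.970) and among the genes most like *Nrp2* were *Sgk1* (0.945) and *Adamts9* (0.941). *Tek* was closest to *Acvrl1* (0.988), the endothelial BMP receptor, then *Mmrn2* and *Sox7*, and *Tie1* to *Ccm2l* (0.982), *Tek* and *Cd38*. *Angpt2* was closest to *H2-Q7*, *Ifit1* (0.990) and *Gbp2* (0.988). *Ifit1* and *Gbp2* are interferon-induced, and *H2-Q7* shares reads with near-identical copies, so its counts are uncertain. Between members, *Tek* and *Tie1* were most alike (0.978), *Tie1* and *Angpt2* least (0.322), and the neuropilins stood at 0.436.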

How the data were processed

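Adult mouse heart endothelial cells, fresh and from co-aggregates, were profiled by droplet single-cell RNA sequencing in 3 pools. The authors aligned reads and counted UMIs with Cell Ranger 3.1.0 (mm10), aggregated the libraries with removal of batch effects, and deposited 1 table of raw counts with 1 cluster number per cell. The submitters' processing notes also name Seurat 3.1.5. The methods state a minimum of 5,000 UMIs per cell and 9,562 cells, whereas the table's 9,562 cells include 90 below that depth, leaving 9,472. Of 27,998 rows, 353 had no symbol and were kept under their identifiers, and rows sharing a symbol were summed.

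The members and the gene lists were chosen with earlier results of these data known. Deposited counts were summed by cluster and by barcode ending, and given per 10,000 UMIs with exact Poisson intervals. Shares of cells carry exact binomial (Clopper–Pearson) intervals. Intervals and floors cover counting error only. Cells were thinned to 5,000 UMIs (10,000 as an alternative). Likeness used log2 of the level plus 0.1, among genes at 0.5 or more in a cluster. Genes named in the text were the members, pathway genes that were called or reached a level of 1, the 3 genes most like each member (1 of them, for *Nrp2*, is not reported here), the genes that make splits and the markers. No test was run between clusters, since they were built from the same counts, no doublet caller was run, and no protein sequences were used. The calling step was run on simulated counts, where 200 of 200 genes changed 3-fold were recovered in each of the 4 comparisons, with 0 false calls. The simulated counts held counting error only, with no spread between libraries, and the planted change lay past the 2-fold threshold. This outcome therefore checks the code and does not show how reliable the calls are in these data. Alternatives were the mean over cells, libraries weighted equally, thinning, leaving out the 5% of cells with the most UMIs or 1 library, other folds (1.5 and 4), other minimum levels (0.01 and 1) and, for likeness, Spearman's rho, a pseudocount of 0.01 and a minimum of 0.1. Work was done in Python 3.11.15 with numpy 2.4.6, scipy 1.17.1, pandas 2.3.3 and matplotlib 3.10.9.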

Additional observations from a re-analysis of the deposited data

Results flagged for a closer look

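*Flt1* stood out because its difference between cells with and without *Angpt2* ran in opposite directions in 2 clusters in every library. Its log2 ratio at 5,000 UMIs per cell was -0.38 in cluster 1 (4.89 against 6.38 UMIs per 10,000), lower by 0.10, 0.37 and 0.74 in libraries 1, 2 and 3, and 0.14 in cluster 2, where it was within counting error (-0.065 to 0.33) with 0.011, 0.045 and 0.645 in the libraries. The difference between the clusters was not tested. At 10,000 UMIs per cell the ratio in cluster 1 was 0.11.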

How the results depend on the processing

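The counts of members called kept within 1.5 times under every change of scaling, thinning and the deepest cells, and changed with the threshold or filter. With a minimum level of 1, members called higher in clusters 0, 1 and 2 than in 5 and 6 numbered 4, in cluster 1 than in cluster 2 numbered 1, and in cluster 6 than in cluster 5 numbered 0, with 0 called lower in cluster 0 than in cluster 2 and 0 in cluster 6 than in cluster 5. At 4-fold, 1 was higher in cluster 0 than in cluster 2, 1 in cluster 1 than in cluster 2, and 0 higher and 0 lower in cluster 6 than in cluster 5. At 1.5-fold, 2 were lower in cluster 0 than in cluster 2, 4 were higher in cluster 1 than in cluster 2 and 2 in cluster 6 than in cluster 5. Leaving out 1 library gave 1 to 3 members higher in cluster 1 than in cluster 2. Within cluster 1, at 10,000 UMIs per cell, the log2 ratio between cells with and without *Angpt2* turned to 0.11 for *Flt1* and 0.031 for *Tek*; the cause was not tested, and 106 and 162 cells were left. Of the shares of cells, 176 moved. Of these, 43 moved with a threshold of 0 UMIs per 10,000, 50 with a threshold of 1 and 52 with thinning to 5,000 UMIs. The other 31 moved with the selection of cells without *Cdh5* and *Pecam1* UMIs. In addition 46 levels moved, 21 of them with thinning to 5,000 UMIs, mostly low levels in clusters 3, 5 and 6. By Spearman's rho the genes most like 6 of the 8 members changed (fewer than 2 of 3 kept), and with a pseudocount of 0.01 those of 2. Every library held cells of all clusters, and the ratios per library compare clusters within each library. No paired test was run on them, because the clusters were built from the same counts and such a test would not be independent of that choice. *Angpt2* outside cluster 1 and *Flt4* outside clusters 0, 1 and 2 lie at levels where depth limits what can be seen.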
